A study of Oryza sativa with 36 samples.

Results

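The 195 probe sets described here were the most root-enriched features of 57258 rice probe sets on the Affymetrix rice genome array, hybridised with RNA of the drought tolerant line DK151. They were chosen on the control arrays alone. For each probe set the lowest of the 2 root means was set against the highest of the 3 leaf means and the young panicle mean, in log2 intensity, and the 200 with the largest excess were taken. Of 8 probe sets left out by the same rule, 5 lay among these 200. DK151 is 1 inbred line, derived from a cross between a pair of introgression lines in the background of the variety IR64, and every group compared here is of this line. The 36 arrays formed 12 groups of 3. The droughted groups came from plants whose tubes of baked clay had been drained until the leaves rolled, at a leaf relative water content of 65 to 75%, and the control groups from plants kept watered. The tubes had been given half-strength nutrient solution and distilled water in turn, and loss of water and of nutrient solution were not separated. Per the study, stress became apparent after 3 days at tillering and panicle elongation and after 2 days at booting. Roots were sampled at tillering (TR) and panicle elongation (PR), leaves at tillering (TL), panicle elongation (PL) and booting (BL), and young panicles at booting (BP). Each array held the RNA of an individual plant. Values are intensities on the scale deposited by the authors, and a change is droughted minus control in log2, with its standard error. That error pools the spread within all 12 groups, shoot groups near background included, so it is not the spread of the root arrays alone.

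Roots take up water and mineral ions and pass them to the shoot. Aquaporins carry water across root membranes, dedicated transporters take up phosphate, ammonium and silicon, and the Casparian strip of the endodermis closes the path between the cells. Behind these functions stand the enzymes that build and loosen the cell wall, the phenylpropanoid enzymes that supply lignin and suberin, and defence proteins that face the soil. RNA of genes with such roles is commonly far more abundant in roots than in leaves.

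The choice fixed the levels on the control arrays, which are given as a description. The root excess of the members ran from 7.57 log2 units down to 4.58. LOC4338717 and Os02g0467600, described as the cinnamate 4-hydroxylase CYP73, were the last inside the list, both at 4.58, and LOC4339414 (4.57) and LOC4338535 (4.56) were the first outside it. The median member had an intensity of 1558 in control roots at tillering and 1505 in control roots at panicle elongation, with a control mean of at least 247 and 191 in every case. In the 4 other control groups the medians were between 21.9 and 24, under the median of 59.7 over all probe sets and arrays.

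Of the members, 122 matched 1 gene of the reference annotation, 2 several and 71 none, and the 122 stand for 119 genes. Across these classes 25 members, by the ending of their identifier, may bind several transcripts. Among members named further on, they include CPDK2, MT-1-4b, the first member of OsTIP2, Os07g0604700 and LOC4347027. The reference gave a name to 22 members. Descriptions of 68 members came from the supplementary tables of the study, which list genes called changed on these same arrays. Whether a member was described was therefore tied to its change, and the 127 members without a description are counted apart. Identifiers of the form Os07g0127600 are from these tables, and names such as OsTIP2, or LOC followed by a gene number where there is no name, from the reference.

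Sequence was at hand for a pair of members, as the primers designed for RT-PCR. They are shown because both members were called lower in roots and higher in a shoot sample, for Os07g0127600 at intensities near 0, as described further on. The first pair amplifies Os07g0127600 (chromosome 7), an allergen V5/Tpx-1 related protein, the family that includes pathogenesis-related protein 1, and the second amplifies Os03g0830500 (chromosome 3), described as PGPS/D12. Each primer is written from its 5′ end.
Os07g0127600 forward: atcgtcaacatccacaac
Os07g0127600 reverse: tagttgttgcgatcggag
Os03g0830500 forward: gctaattaaggtaccagc
Os03g0830500 reverse: atcgatctcctactttcc

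The tissue labels were checked with marker lists named from the reference. The summed intensity of 12 root marker probe sets, of which Lsi2 and 1 of 3 probe sets of OsCASP1 were members, was 6959 to 7718 in droughted and 20514 to 27551 in control roots at tillering, and 7577 to 8621 in droughted and 20759 to 26438 in control roots at panicle elongation. It lay between 694 and 4555 in all other arrays but 1. The exception was TL control replicate 3, at 7733, against 1429 and 1664 in its partners. The value of 4555 was that of PL control replicate 2, against 1955 and 2046 in its partners. The sum of 21 leaf markers was 4726 to 10453 in droughted roots and 4934 to 8368 in control roots other than PR control replicate 3, which had 16617. Matching by name also took into these 21 PYL5 (RCAR5), which is no leaf marker, and CFBP1. In droughted roots 1 probe set of CFBP1 rose by 3.24 at tillering and 3.19 at panicle elongation, so the sum is not of leaf signal alone. Without TL control replicate 3, 4.1% of members were called higher in droughted leaves at tillering, and without PR control replicate 3, 42.1% were called lower in droughted roots at panicle elongation. The sum of 16 young panicle markers reached at most 5391 in any root array and was 24348 to 29483 in young panicles. PL control replicate 2 had 6151 of it, against 3508 and 3684 in its partners. The part of these marker sums in the changes of the members was not tested. Single root markers changed by -4.82 to -0.13 at tillering and by -4.75 to 0.24 at panicle elongation, and 3 of the 12 were called lower at each stage. The nitrate transporter NRT2.3 (-4.82 and -4.75) and NAS1 (-4.37 and -4.75), a nicotianamine synthase, were among the lowest, and the endodermis regulators SHR1 (-0.13 and -0.07) and SCR1 (-0.49 and 0.24) among the least changed.

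Most root-enriched probe sets were lower in droughted roots, and none was called higher there. In droughted roots at tillering 105 of the 195 members were called lower (53.8%), against 1.37% of all probe sets, and 0 were called higher, against 0.744%. In droughted roots at panicle elongation 82 were called lower (42.1%), against 0.966% of all, and 0 higher, against 1.12%. A call required a change of at least 5-fold and an adjusted p (Benjamini-Hochberg, over the 57258 probe sets) under 0.05. With a 2-fold minimum, 153 members were lower (78.5%, against 6.35% of all) and 1 higher (0.513%, against 4.02%) at tillering, and 130 lower (66.7%, against 5.54%) and 4 higher (2.05%, against 4.62%) at panicle elongation, with 126 lower at both (64.6%, against 3.88%). The 80 members called lower at both stages made up 41% of the list (0.735% of all probe sets), while 25 were called at tillering alone, 2 at panicle elongation alone and 88 at neither.

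The control arrays chose the members and also entered these changes, so a member that was high on them by chance would appear to fall. The list was therefore also chosen on 2 control replicates and the change measured against the 1 not used. Each such control group is a single array, assumed to vary like the other groups, so these calls rest on the spread among droughted arrays. The 3 lists shared 173, 176 and 180 members with the main list. With control replicate 1, 2 or 3 held out, 56.7%, 50.8% and 52.1% of members were called lower at tillering (1.34%, 1.61% and 1.33% of all probe sets), and 38.1%, 40% and 38.7% at panicle elongation (0.849%, 1.08% and 1.63%). Members called higher were 0, 3 and 0 at tillering (0.723%, 0.924% and 0.707% of all) and 0, 5 and 1 at panicle elongation (1.2%, 1.29% and 1.18%).

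**Figure D1:**
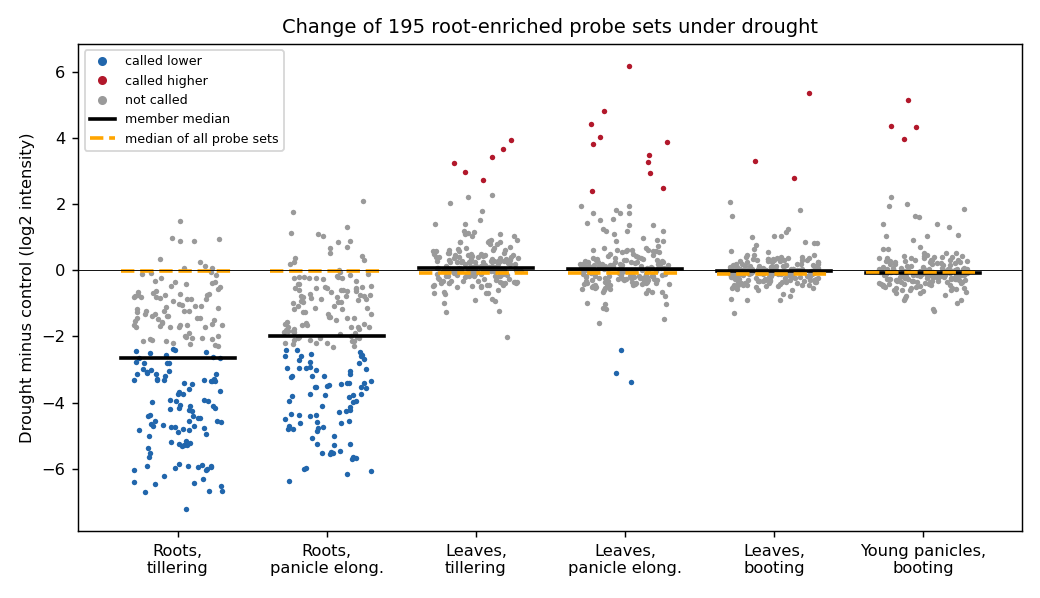
Change under drought of the 195 root-enriched probe sets in 6 tissues and stages, in log2 intensity, droughted minus control. Each point is a member, coloured by its call; black bars give the member median (-2.64 in roots at tillering, -2.0 in roots at panicle elongation) and dashed bars the median of all probe sets, which lies near 0.

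The median member changed by -2.64 in roots at tillering, where the median of all probe sets was -0.03, and by -2.0 in roots at panicle elongation, where it was -0.02. The quartiles of the members lay at -4.47 and -1.22 at tillering and at -3.54 and -0.76 at panicle elongation, and 177 members were below 0 at both. Droughted and control arrays did not overlap, with drought lower, for 175 members at tillering (89.7%, against 24.1% of all probe sets) and for 156 at panicle elongation (80%, against 21.4%), and with drought higher for 5 (2.56%, against 20.6%) and 7 (3.59%, against 18.3%). The median member intensity was 253 in droughted and 1558 in control roots at tillering, and 384 in droughted and 1505 in control roots at panicle elongation. Drought took 45 members at tillering and 30 at panicle elongation under the median intensity of all probe sets, where no member lay in control roots. In these whole-organ samples fewer cells of a type and less RNA per cell cannot be told apart.

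The fall was larger than 30-fold for 33 members at tillering and 18 at panicle elongation, with 15 members past it at both. Such folds reach to intensities near background. All 3 droughted arrays lay under 28.3, the 25th percentile of all values, for 22 members at tillering and 9 at panicle elongation. With every value under 28.3 raised to it, the counts called lower were again 105 and 82, and the lowest change was -6.66 at tillering and -6.02 at panicle elongation.

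**Figure D2:**
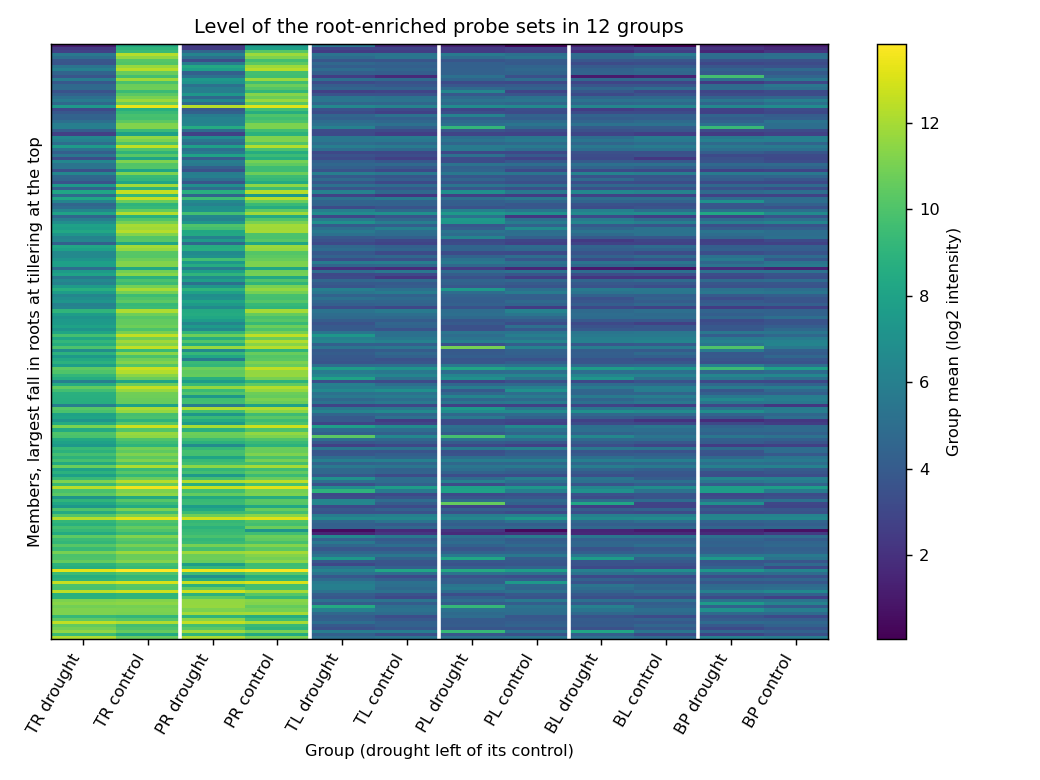
Mean log2 intensity of each member (rows, ordered by their change in roots at tillering) in the 12 groups (columns, drought left of its control). The 2 control root columns are bright throughout, the droughted root columns are dark in the upper rows and bright in the lower ones, and the shoot columns are dark apart from single rows in droughted shoots.

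Among members with a description, some of the largest falls belonged to proteins of varied roles. Os02g0609200, described as ATOZI1, had 11.4, 13.3 and 15.4 in droughted roots at tillering, against 985, 1447 and 1138 in control roots (-6.47 ± 0.30, adjusted p = 6.68e-16). It had 9.87, 8.50 and 10.7 in droughted roots at panicle elongation, against 332, 1469 and 1052 in control roots (-6.37 ± 0.30, adjusted p = 6.09e-16). Its droughted intensities were all under the 25th percentile, and with values raised to 28.3 its changes were -5.38 and -4.82. Os02g0791400, described as subunit VIb of cytochrome c oxidase, had 31.2, 33.6 and 33.1 in droughted roots at tillering, against 2874, 3216 and 2869.9 in control roots (-6.51 ± 0.26, adjusted p = 3.01e-17), and its change at panicle elongation was -6.02 ± 0.26. Os10g0552600, with a domain of lipid transfer proteins, had 58.5, 80.0 and 59.3 in droughted roots at tillering, against 5585, 5371 and 4689.7 in control roots (-6.32 ± 0.20, adjusted p = 3.62e-19). At panicle elongation it had 139, 277 and 324 in droughted roots, against 4998, 4306 and 5609.7 in control roots (-4.41 ± 0.20, adjusted p = 3.24e-16). All these members had droughted arrays under every control array. Of the other named members with the largest root excess, Os07g0421300, a glycoside hydrolase of family 31, changed by -3.91 and -2.70 at tillering and panicle elongation and was called lower at both.

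Several members serve nutrient uptake. OsPht1;2, a phosphate transporter, had 259, 278 and 348 in droughted roots at tillering, against 4859, 3465 and 3552 in control roots (-3.74 ± 0.24, adjusted p = 6.95e-13). At panicle elongation it had 243, 447 and 492 in droughted roots, against 4000.3, 4875 and 2105 in control roots (-3.19 ± 0.24, adjusted p = 1.70e-11). OsPht1;2 thus fell to 7.48% and 10.9% of its control level, and every droughted array lay under every control array. Os10g0116800, a purple acid phosphatase, the class of enzyme that releases phosphate from organic compounds, had 49.8, 42.4 and 38.7 in droughted roots at tillering, against 1301, 1477 and 769 in control roots (-4.71 ± 0.35, adjusted p = 2.16e-11), and 23.8, 18.3 and 16.8 in droughted roots at panicle elongation, against 251, 1579.6 and 1030.4 in control roots (-5.25 ± 0.35, adjusted p = 1.81e-12). Os02g0620500, described as a high affinity ammonium transporter, had 29.1, 49.0 and 47.8 in droughted roots at tillering, against 493, 3022 and 854 in control roots (-4.73 ± 0.58, adjusted p = 2.35e-07), and 37.7, 46.9 and 65.5 in droughted roots at panicle elongation, against 250.5, 2642 and 3856 in control roots (-4.81 ± 0.58, adjusted p = 1.66e-07). Its controls were far apart, yet every droughted array lay under every control array at both stages.

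Transporters of water and silicon and a protein of the Casparian strip stayed within 5-fold. OsTIP2, an aquaporin of the vacuolar membrane, was measured by 2 members. The first had 1814, 2244 and 2072 in droughted roots at tillering, against 4091, 3432 and 2895 in control roots (-0.76 ± 0.19, adjusted p = 0.00283), and 2927, 4347 and 3431 in droughted roots at panicle elongation, against 4370.2, 3572 and 4086 in control roots (-0.18 ± 0.19, adjusted p = 0.538). The second gave changes of -0.76 and -0.25 at tillering and panicle elongation. For both, droughted and control arrays did not overlap at tillering and overlapped at panicle elongation.

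OsCASP1, which builds the membrane domain of the Casparian strip, had 342, 418 and 318 in droughted roots at tillering, against 759, 869.8 and 611 in control roots (-1.05 ± 0.22, adjusted p = 5.76e-04), and 595, 746 and 740.1 in droughted roots at panicle elongation, against 792, 899 and 776 in control roots (-0.25 ± 0.22, adjusted p = 0.462). Lsi2, the silicon efflux transporter, had 823, 746 and 955 in droughted roots at tillering, against 1811, 1507 and 1271 in control roots (-0.86 ± 0.28, adjusted p = 0.0196), and 358, 441 and 668 in droughted roots at panicle elongation, against 1819, 2744 and 1014 in control roots (-1.86 ± 0.28, adjusted p = 4.97e-06). Nrat1, an aluminium transporter of the plasma membrane, had 472, 517 and 500.0 in droughted roots at tillering, against 2088, 911 and 1313 in control roots (-1.45 ± 0.37, adjusted p = 0.00346), and 301, 387 and 182 in droughted roots at panicle elongation, against 2250.2, 1182 and 342 in control roots (-1.81 ± 0.37, adjusted p = 3.91e-04). None of these passed the 5-fold limit, although Lsi2, Nrat1 and, at tillering, OsTIP2 and OsCASP1 had an adjusted p under 0.05. The arrays of Nrat1 overlapped at panicle elongation. MT-1-4b, a metallothionein that binds metal ions, was among the brightest members, with 11013, 9238 and 8893 in droughted roots at tillering, against 13854, 15046 and 14496 in control roots (-0.58 ± 0.34, adjusted p = 0.224).

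Lists matched by gene name alone, which do not depend on the tables of the study, put these members beside other probe sets named for the same pathways. Members that match a list are counted in it. For these and the later lists, the shares over all probe sets were 1.37% lower and 0.744% higher at tillering. At panicle elongation they were 0.966% lower and 1.12% higher. Whether a list departed from these shares was not tested, and counts of a few probe sets are given as a description. Of 38 probe sets of water channels, 2 were called lower and 1 higher in droughted roots at tillering, and 0 lower and 3 higher at panicle elongation. Of 34 of phosphate uptake, OsPht1;2 was the 1 called lower at each stage. Of 25 of nitrate and ammonium uptake and assimilation, none a member, 6 fell at tillering and 5 at panicle elongation. Of 90 of metal uptake, 10 fell at tillering, and 6 fell and 3 rose at panicle elongation. Of 53 late embryogenesis abundant proteins, dehydrins and heat shock proteins, which are known to accumulate in drying tissue, none was a member, and they ran the other way, with 14 called higher and 2 lower at tillering and 30 higher and 1 lower at panicle elongation.

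The 4 described members of the AP2 and ERF family, to which ethylene response factors belong, were called lower at both stages, by -6.44 to -2.62 at tillering and -6.05 to -2.68 at panicle elongation. They are 4 of 27 described probe sets of this family on the array, and the descriptions themselves came from genes called changed. Os10g0390800, an ERF domain protein, had the smallest changes of the 4 (-2.62 and -2.68). Os03g0341000, described as RAP2.2, had 9.52, 14.8 and 14.6 in droughted roots at tillering, against 649.7, 1885 and 1090.3 in control roots (-6.44 ± 0.52, adjusted p = 9.47e-11), and 42.6, 55.7 and 77.8 in droughted roots at panicle elongation, against 355, 2219 and 2977 in control roots (-4.54 ± 0.52, adjusted p = 7.09e-08). Os07g0674800, with the same description, had 12.1, 9.99 and 10.8 in droughted roots at tillering, against 169, 649.9 and 205 in control roots (-4.69 ± 0.48, adjusted p = 9.59e-09), and 12.6, 14.3 and 8.20 in droughted roots at panicle elongation, against 221, 1257 and 1553 in control roots (-6.05 ± 0.48, adjusted p = 5.52e-11). Both had droughted root intensities between 8.20 and 77.8, and no droughted array reached a control array. The last to be named, cap2, described as an ethylene responsive element binding factor, changed by -3.99 and -3.73 and kept a higher level than these, with 259 to 359 in droughted roots at tillering. Of 320 probe sets of transcription factors matched by name, 11 were called lower and 6 higher at tillering, and 7 lower and 14 higher at panicle elongation.

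The hormone list held 123 probe sets matched by name, of which 4 were called lower and 1 higher at tillering, and 7 lower and 0 higher at panicle elongation. Of those called lower, 2 at each stage were members. OsPIN5, of the PIN family of auxin carriers, had 18.3, 22.5 and 21.9 in droughted roots at tillering, against 503, 1316 and 854 in control roots (-5.31 ± 0.47, adjusted p = 4.87e-10), and 49.5, 67.4 and 109.7 in droughted roots at panicle elongation, against 188, 1250.2 and 1897 in control roots (-3.42 ± 0.47, adjusted p = 1.34e-06). LOX1.1, a lipoxygenase of the kind that begins oxylipin synthesis, changed by -2.81 and -3.13 and was called lower at both stages, whereas AOS4, an allene oxide synthase of the next step, changed by -0.51 and -0.80 and was called at neither. MADS27, a MADS-box transcription factor, had 616, 592 and 646 in droughted roots at tillering, against 573, 445 and 701 in control roots (0.13 ± 0.19, adjusted p = 0.674), and 418, 521 and 667 in droughted roots at panicle elongation, against 507, 356 and 323 in control roots (0.44 ± 0.19, adjusted p = 0.0856). Its droughted and control arrays overlapped at both stages. MADS27 and ABCG48 (-0.34 and 0.67), an ABC transporter, were among the members with the smallest root change. Of signalling genes, the receptor-like kinase Os01g0810800 was called lower at both stages (-4.83 and -4.85) and EDR1-like, which carries the name of a protein kinase of Arabidopsis disease resistance, at tillering alone (-2.65 and -2.05).

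Several members act in the cell wall or in phenylpropanoid synthesis. Os06g0199000, a glycine-rich wall protein, had 43.7, 36.7 and 39.9 in droughted roots at tillering, against 1825, 5561 and 3729 in control roots (-6.39 ± 0.40, adjusted p = 5.41e-13), and 136, 343 and 798 in droughted roots at panicle elongation, against 1871, 5405 and 4619.8 in control roots (-3.43 ± 0.40, adjusted p = 1.19e-07). EXP8, an alpha-expansin that loosens walls, changed by -3.11 and -2.42, and the cell wall invertase Os04g0664900, which splits sucrose outside the cell, by -3.01 and -2.54. Both were called at both stages. Without PR drought replicate 1 or PR control replicate 1 the change of Os04g0664900 at panicle elongation was -2.21 and -2.29, short of 5-fold. Of the early phenylpropanoid enzymes, the phenylalanine ammonia-lyase Os02g0626600 had 20.0, 28.7 and 25.3 in droughted roots at tillering, against 324, 636 and 639 in control roots (-4.38 ± 0.39, adjusted p = 5.60e-10), and the cinnamate 4-hydroxylase Os02g0467600, which follows it in the pathway, had 21.4, 23.1 and 20.5 in droughted roots, against 577, 1176 and 1029.7 in control roots (-5.36 ± 0.26, adjusted p = 1.65e-15). At panicle elongation they changed by -3.19 and -4.23, again past the threshold. CAD8A, a cinnamyl alcohol dehydrogenase at the end of monolignol synthesis, was called lower at tillering (-2.79) and not at panicle elongation (-1.82). AT5, an acyltransferase, was called at neither (-2.05 and -0.71), and the cytochrome P450 Os09g0447500 was called lower at both (-3.69 and -3.51). Members given here by locus number were described in tables of genes called changed, whereas CAD8A and AT5 were named from the reference. These calls therefore do not tell early enzymes of the pathway from late ones. Of 79 probe sets of specialised metabolism matched by name, 3 were called lower and 2 higher at tillering, and 0 lower and 0 higher at panicle elongation. Of 111 probe sets with a name of wall proteins, 11 were called lower at tillering and 5 lower and 1 higher at panicle elongation, of which 1 lower at each was a member, EXP8.

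Other members are proteases, peroxidases and defence proteins. The 4 described papain-type cysteine proteases changed by -6.21 to -5.27 at tillering and -5.45 to -4.30 at panicle elongation, and the 3 haem peroxidases by -5.93 to -4.77 and -4.57 to -2.92. All 7 were called lower at both stages, out of 5 and 25 described probe sets of these families, and the descriptions themselves came from genes called changed. Os12g36840, a pathogenesis-related protein of class 10, had 3.86, 7.95 and 9.17 in droughted roots at tillering, against 1274, 1366 and 169.8 in control roots (-6.67 ± 0.61, adjusted p = 1.12e-09), and 8.21, 56.7 and 32.6 in droughted roots at panicle elongation, against 927, 782 and 2616 in control roots (-5.64 ± 0.61, adjusted p = 2.47e-08). Replicates differed widely on both sides, yet the groups did not overlap. Of 59 probe sets of defence proteins matched by name, 2 were called lower and 1 higher at tillering, and 1 lower and 2 higher at panicle elongation. Os07g25050, described as a thionin-like peptide, changed by -6.71 and -5.49. GLP2, a germin-like protein with 2 members, was called at neither stage, at -1.37 and -0.79 for the first and -2.30 and -1.56 for the second.

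Some members were close neighbours by locus number. On chromosome 10, the run from Os10g0452300 to Os10g0455300 held 7 members among 8 described probe sets, and 5 of them were described as eggshell family proteins, a name that says little of their role in plants. All 7 were called lower at both stages, by -5.53 to -3.08 at tillering and -5.01 to -2.95 at panicle elongation. These locus numbers came from the tables of genes called changed, so probe sets of the run outside those tables could not be counted. Of all 68 described members, 67 were called lower at tillering and 66 at panicle elongation, so these calls are no sign of a shared control of the run. Os10g0455100, the most root-enriched of them, had 186, 70.7 and 50.8 in droughted roots at tillering, against 1964, 2392 and 2686 in control roots (-4.74 ± 0.43, adjusted p = 1.01e-09), and 69.8, 67.5 and 51.6 in droughted roots at panicle elongation, against 2205, 2513 and 1461 in control roots (-5.01 ± 0.43, adjusted p = 2.87e-10). By the order of genes in the reference, 8 members formed 4 pairs of genes within 5 genes of each other, among them Os01g0895200 and Os01g0895300 on chromosome 1, called lower at both stages.

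Os05g0469800, described as a fragment of pyruvate decarboxylase, the first enzyme of ethanol fermentation, had 54.1, 77.7 and 70.3 in droughted roots at tillering, against 1853, 3429.8 and 1506 in control roots (-4.99 ± 0.36, adjusted p = 7.10e-12), and 51.0, 40.0 and 42.5 in droughted roots at panicle elongation, against 767, 4271 and 3592 in control roots (-5.68 ± 0.36, adjusted p = 3.70e-13). Of 23 probe sets of fermentation and low oxygen genes matched by name, none a member, 8 were called lower and 1 higher at tillering, and 6 lower and 1 higher at panicle elongation. CPDK2, a pyruvate phosphate dikinase, changed by -4.47 and -3.54 and was still at 248 to 348 in droughted roots at tillering, against 5581 to 6992 in control roots. The acyl carrier protein desaturase Os01g0880800, an enzyme of fatty acid synthesis, changed by -5.98 and -5.55, and outside these pathways the B12D protein Os07g0604700 by -5.92 and -5.98. Each passed the threshold in both root samples.

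The members with names from the reference did not depend on the tables. Of these 22, 9 were called lower at tillering and 6 at panicle elongation, with medians of -1.75 and -1.68. Of the 68 described members, 67 were called lower at tillering and 66 at panicle elongation, with medians of -4.69 and -3.78. Of the 127 without a description, 38 and 16 were called, with medians of -1.58 and -1.09.

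The change was higher at panicle elongation than at tillering, mostly as a smaller fall, for 146 of the 195 members. The change at panicle elongation exceeded that at tillering by 5-fold or more, with an adjusted p under 0.05, for 9 members (4.62%, against 0.334% of all probe sets), and the reverse held for 0 (0.0594% of all). With a 2-fold minimum this was so for 34 members (17.4%, against 2.36%). Of the 25 members called lower at tillering alone, 5 were among these 9, and 15 had an adjusted p under 0.05 for the difference at any fold. Across members the changes at the 2 stages had a Pearson correlation of 0.876, given as a description, since the members share their arrays.

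The largest difference between stages was that of LOC4347027 on chromosome 9, singled out after its values were seen. It had 96.3, 229.5 and 265 in droughted roots at tillering, against 11476, 9723 and 10054 in control roots (-5.85 ± 0.25, adjusted p = 1.40e-16), and 3656, 6029 and 6389 in droughted roots at panicle elongation, against 11784, 9369 and 7035 in control roots (-0.82 ± 0.25, adjusted p = 0.0146). Droughted arrays at tillering were far under those at panicle elongation (difference of the changes 5.03 ± 0.36, adjusted p = 1.53e-10). Of named members, Os06g0199000 (2.96 ± 0.57, adjusted p = 0.0013), the peroxidase Os03g0368000 (2.71 ± 0.44, adjusted p = 1.73e-04) and Os03g0830500 (2.64 ± 0.68, adjusted p = 0.0149) differed between the stages. With values raised to 28.3 the difference of Os03g0368000 was 1.41, short of 5-fold. Droughted roots at panicle elongation differed among plants. Replicate 1 had a median member intensity of 247, against 387 and 431 in replicates 2 and 3, and was the lowest of the 3 for 127 members. Without it, 39.0% of members were called lower at panicle elongation and 5.64% were called higher there than at tillering. Other root arrays differed too. At tillering, replicate 2 was the highest of its group for 102 members in control and 94 in droughted roots. PR control replicate 1 lay far under its partners for Os02g0620500, Os10g0116800, OsPIN5 and Os05g0469800. Leaving out 1 array at a time, the change at panicle elongation was -6.03 to -4.06 for Os02g0620500 and -4.43 to -2.76 for OsPIN5.

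**Figure D3:**
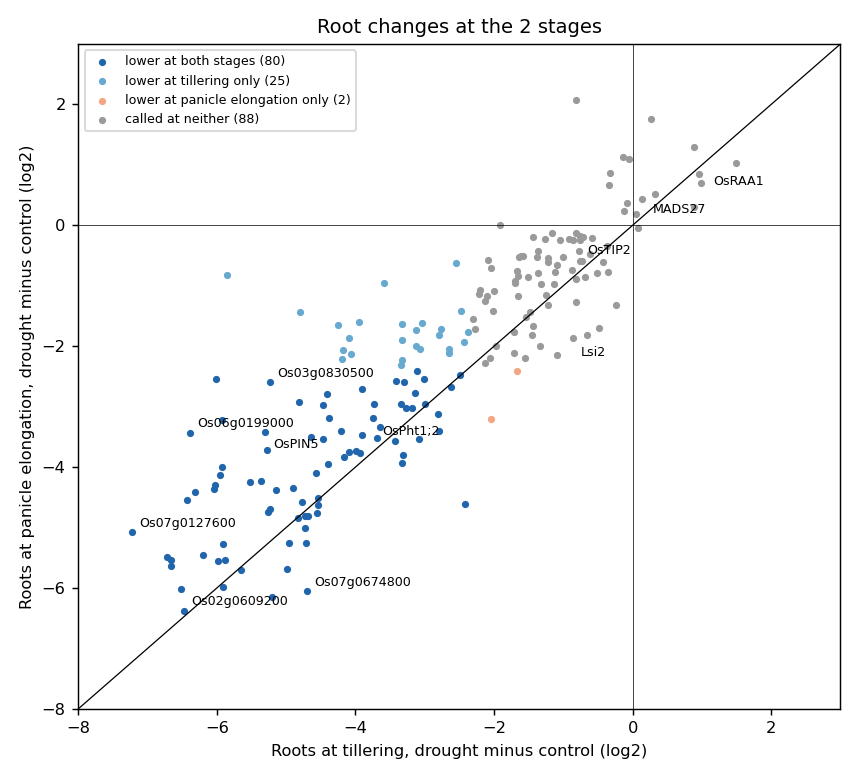
Change of each member in roots at tillering (horizontal) and at panicle elongation (vertical), droughted minus control in log2, coloured by call, with named members marked and the line of equal change. Most points lie above the line, with a smaller fall at panicle elongation, and 80 of 195 were called lower at both stages.

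Droughted arrays took no part in the choice, so root excess under drought could be tested on them. Droughted roots exceeded droughted leaves at tillering for 120 members (61.5%, against 1.79% of all probe sets), and at panicle elongation for 136 (69.7%, against 3.09%). Over droughted young panicles, which were sampled at booting and so at a later stage than either root sample, the counts were 124 (63.6%, against 1.71%) and 142 (72.8%, against 2.67%). For 110 members all 4 comparisons were called (56.4%, against 0.669% of all probe sets). By the rule of the list applied to droughted arrays, the median root excess of the members was 2.57, against 5.26 on control arrays, and 34 members had an excess below 0. Of the 200 most root-enriched probe sets under drought, 82 were members, and 118 were not.

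**Figure D4:**
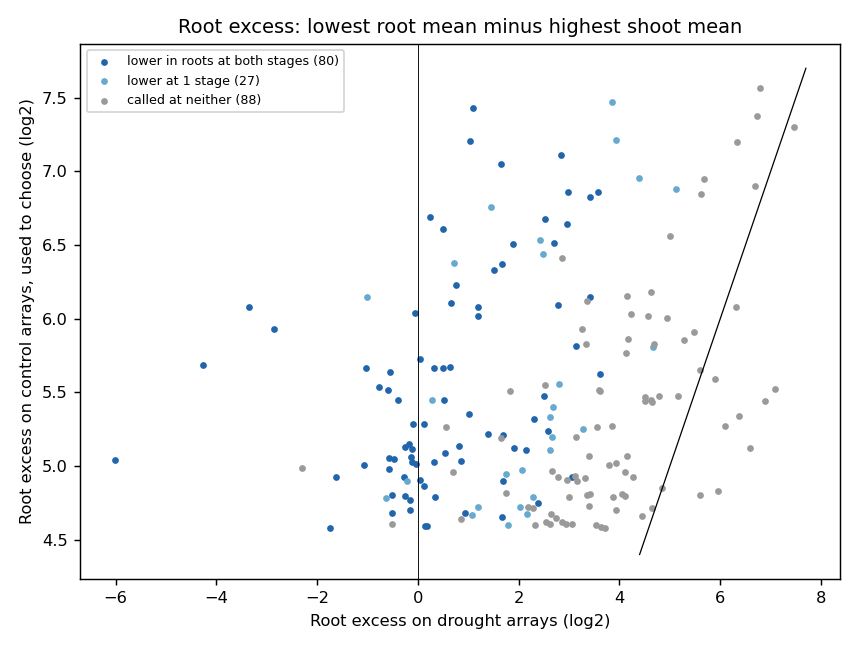
Root excess of each member on droughted arrays (horizontal) against control arrays, which chose the list (vertical), as the lowest root mean minus the highest shoot mean in log2 intensity. The sloped line marks equal excess and the vertical one marks 0; 34 of the 195 members are below 0 under drought.

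Among members that stayed root-enriched under drought, OsTIP2 exceeded droughted leaves by 6.33 at tillering and 7.36 at panicle elongation, MT-1-4b by 7.04 and 5.00, OsCASP1 by 4.94 and 5.97, and Lsi2 by 5.37 and 4.19. A few members were lower in droughted roots than in droughted shoots. Os07g0127600 was called lower in roots than in leaves at tillering, the 1 such member (0.513%, against 3.14% of all probe sets; -4.26 ± 0.75, adjusted p = 4.18e-05). With values raised to 28.3 this difference was -0.82 and not called. Os03g0830500 was lower in roots at tillering than in young panicles (-3.36), and Os01g0550800, a DUF239 protein, was lower than in young panicles in roots of both stages (-6.01 and -4.48). These made 2 members at tillering (1.03%, against 2.57%) and 1 at panicle elongation (0.513%, against 3.17%), while 0 were lower in roots than in leaves at panicle elongation (2.53% of all).

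In shoots most members stayed at the low level of the controls, with median changes of 0.07 in leaves at tillering, 0.03 in leaves at panicle elongation, -0.03 in leaves at booting and -0.08 in young panicles. Members called higher numbered 6 in leaves at tillering (3.08%, against 0.639% of all probe sets), 11 in leaves at panicle elongation (5.64%, against 2.62%), 3 in leaves at booting (1.54%, against 1.22%) and 4 in young panicles (2.05%, against 0.648%). Members called lower were 3 in leaves at panicle elongation (1.54%, against 3.55%) and 0 in leaves at tillering, leaves at booting and young panicles (1.11%, 0.671% and 0.995% of all). With a 2-fold minimum the members higher numbered 20 in leaves at tillering (10.3%, against 5.29%), 24 in leaves at panicle elongation (12.3%, against 8.59%), 10 in leaves at booting (5.13%, against 6.17%) and 15 in young panicles (7.69%, against 4.22%). Altogether 15 members were called higher in at least 1 shoot comparison (7.69%, against 3.32% of all probe sets), and 8 of them were called lower in a root (4.1%, against 0.101%). Of all 195 members, 107 were called lower in a root. The excess of members with both calls therefore mostly restates the fall in roots, and a link between rise and fall was not tested. With values raised to 28.3, 12 of the 15 kept a call in a shoot. Os07g0127600, Os03g0368000 and OsPHT3 lost theirs. A low control level in shoots was a condition of the list, so a fall there had little room to be seen. The same control arrays entered the rises, so a member that was low on them by chance would appear to rise.

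Os07g0127600 had 51.5, 85.6 and 19.1 in droughted leaves at tillering, against 5.56, 2.89 and 2.52 in control leaves (3.67 ± 0.75, adjusted p = 2.40e-04). It also had 0.801, 5.30 and 2.28 in droughted roots at tillering, against 340.2, 415 and 285 in control roots (-7.22 ± 0.75, adjusted p = 1.43e-08), and 1.75, 3.81 and 21.6 in droughted roots at panicle elongation, against 301, 133 and 138 in control roots (-5.07 ± 0.75, adjusted p = 5.29e-06). The leaf and root changes at tillering had opposite calls, and their difference was -10.90 ± 1.07 (adjusted p = 7.96e-09). These values rest on intensities near 0 in control leaves and droughted roots. With all values under 28.3 raised to 28.3, the leaf change was 0.82 and no longer called, the root changes were -3.60 and -2.64, both still called, and the difference was -4.42.

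Os03g0830500 had 604, 460.4 and 708 in droughted leaves at panicle elongation, against 25.8, 27.4 and 29.0 in control leaves (4.41 ± 0.48, adjusted p = 8.18e-09), and 459, 1326 and 462 in droughted young panicles at booting, against 46.2, 20.6 and 36.7 in control young panicles (4.33 ± 0.48, adjusted p = 3.30e-08). It also had 58.1, 78.9 and 57.0 in droughted roots at tillering, against 2516, 2559 and 2186 in control roots (-5.24 ± 0.48, adjusted p = 1.18e-09), and 228, 454 and 466 in droughted roots at panicle elongation, against 2469, 1873 and 2318 in control roots (-2.60 ± 0.48, adjusted p = 1.10e-04). Droughted roots at panicle elongation, at 228 to 466, and droughted leaves of that stage, at 460 to 708, differed by -0.68 in log2, roots minus leaves, which was not called. In leaves at booting its change was 0.01. Without PR drought replicate 1 its root change at panicle elongation was -2.26, short of 5-fold. Os01g0550800 had 588, 1885 and 514 in droughted young panicles at booting, against 7.84, 40.1 and 40.2 in control young panicles (5.15 ± 1.28, adjusted p = 0.00249), and in roots its changes were -6.05 and -4.36. A single droughted leaf array at panicle elongation, replicate 2, had 1310.3 of it, against 4.6 and 7.58 in the other 2.

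The peroxidase Os03g0368000 had 97.1, 58.8 and 102 in droughted leaves at panicle elongation, against 5.61, 10.3 and 7.0 in control leaves (3.49 ± 0.31, adjusted p = 1.57e-10) and 47.6, 97.4 and 51.2 in droughted roots at panicle elongation, against 417, 656 and 698 in control roots (-3.22 ± 0.31, adjusted p = 2.93e-09). With values raised to 28.3 the leaf change was 1.56 and no longer called. OsPHT3 was called higher in leaves at panicle elongation too (2.93, and 0.41 with values raised to 28.3), and was called lower in roots at tillering (-4.18) and not at panicle elongation (-2.06). The remaining members that rose in a shoot and fell in a root were Os10g0464000, described as a hypersensitive-induced response protein, the eggshell family protein Os04g0268700 and LOC4337274, all in leaves at panicle elongation (2.38, 2.49 and 4.82), with LOC4337274 in young panicles as well (4.36).

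The other 7 members that rose in shoots were called in neither root. Os02g0712700, a legume lectin, a class of sugar-binding protein, had 172, 161 and 173 in droughted leaves at tillering, against 17.2, 15.5 and 37.9 in control leaves (2.96 ± 0.31, adjusted p = 8.71e-09), 282, 298 and 307 in droughted leaves at panicle elongation, against 26.1, 8.91 and 25.2 in control leaves (4.03 ± 0.31, adjusted p = 5.94e-12), and 204, 211 and 200.4 in droughted leaves at booting, against 25.5, 15.1 and 23.8 in control leaves (3.29 ± 0.31, adjusted p = 1.53e-09). In young panicles it changed by 2.20 ± 0.31, adjusted p = 1.54e-06, short of 5-fold. Its roots had 994, 1120.3 and 1035 under drought, against 1688, 1808 and 1689 in controls at tillering (-0.72 ± 0.31, adjusted p = 0.0836). OsRAA1, named root architecture associated 1, had 584, 595 and 672 in droughted leaves at panicle elongation, against 46.3, 38.3 and 46.2 in control leaves (3.83 ± 0.26, adjusted p = 5.07e-13), and in leaves at booting it rose as well (2.79). OsRAA1 was also among the few members with a positive root change, with 2919, 3058 and 2968 in droughted roots at tillering, against 1799, 1618 and 1258 in control roots (0.95 ± 0.26, adjusted p = 0.00572), and a change of 0.85 at panicle elongation, both under 5-fold. The largest rise in a shoot was that of LOC4334438, whose probe set may bind several transcripts, at 6.17 in leaves at panicle elongation.

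The difference between root and leaf changes of a stage was tested directly. Roots were lowered by 5-fold or more relative to leaves for 115 members at tillering (59%, against 1.64% of all probe sets) and for 93 at panicle elongation (47.7%, against 2.6%). The opposite held for 0 members at tillering (1.35% of all) and 1 at panicle elongation (0.513%, against 3.35%). That member, a probe set matched to no gene, had 20.9, 13.9 and 19.0 in droughted leaves at panicle elongation, against 235, 116 and 230.0 in control leaves (-3.38 ± 0.60, adjusted p = 2.53e-05), while its root changes were -0.37 and -0.34. These differences use the control arrays that chose the list. Whether root and leaf arrays of a stage came from the same plants is not given in the sources used here. The fit treated them as independent in every comparison of these organs.

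**Figure D5:**
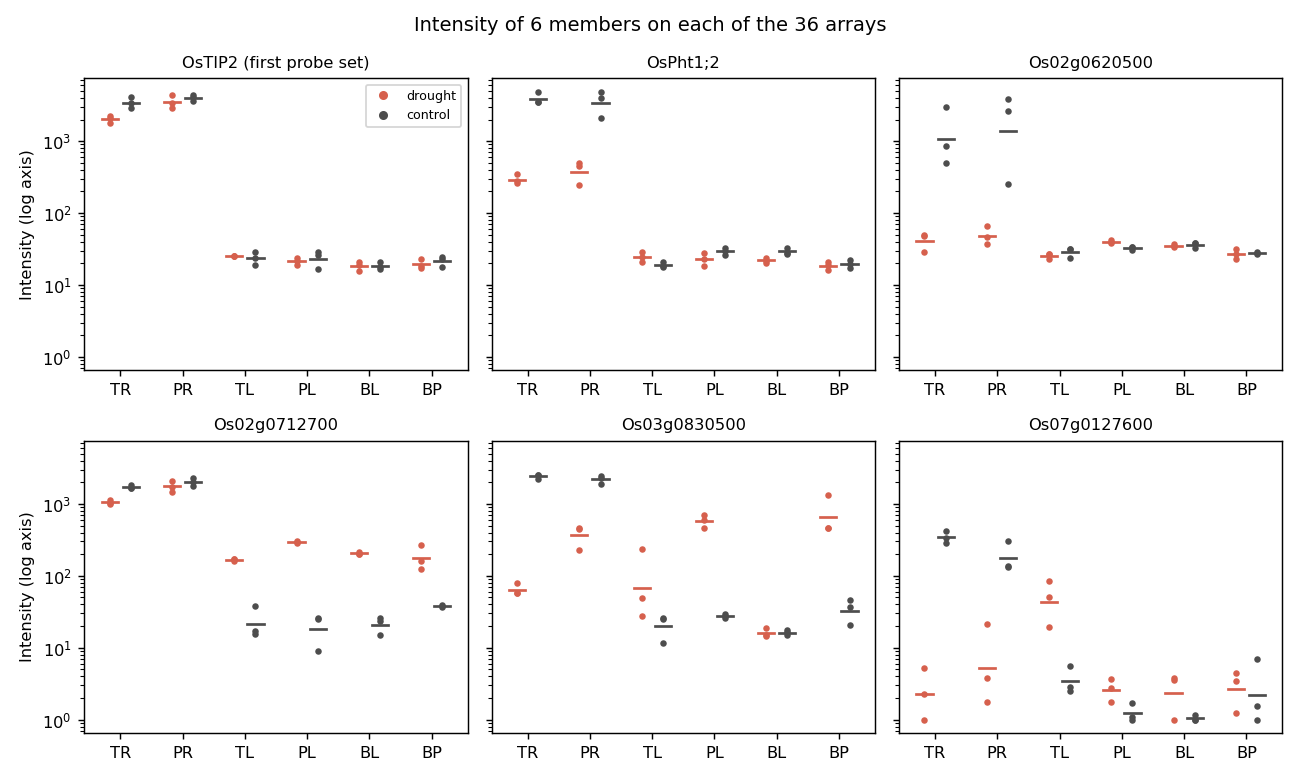
Intensity of 6 members on each array (points; log axis, values under 1 drawn at 1) with group means of the log values (bars), drought left of control, in roots at tillering (TR) and panicle elongation (PR), leaves at tillering (TL), panicle elongation (PL) and booting (BL) and young panicles (BP). OsTIP2 stays in roots, OsPht1;2 and Os02g0620500 fall in roots, Os02g0712700 rises in leaves, Os03g0830500 falls in roots and rises in some shoot samples, and the droughted roots and control leaves of Os07g0127600 lie near 0.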

How the data were processed

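RNA of DK151 was hybridised by the authors to 36 Affymetrix rice arrays, 3 in each of 12 groups. Per the methods of the study, the authors read the arrays with GCOS and normalized them by the invariant-set method in dChip, whose version and treatment of mismatch probes are not given in the sources used here. Each deposited value is an intensity, not log-transformed. A microarray has no read depth, and the number of arrays limits the precision.

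Here intensities under 1 were set to 1 and log2 was taken, 123 control probe sets were left out, and all 12 groups were fitted with limma 3.58.1 (R 4.3.3; 24 residual degrees of freedom). Changes, differences between droughted groups and differences of changes are contrasts of this fit. A call needed a Benjamini-Hochberg adjusted p under 0.05 over 57258 probe sets and 5-fold. An exact permutation test of 3 arrays against 3 cannot go below 0.1. The fit was tested on simulated data, with an outcome that is not reported here. The members and lists were chosen with earlier results of these data known, and the patterns of 1 list were corrected after the values were seen.

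Named members were those with 1 named or described gene and the largest root excess (10), the largest falls (8) and rises (4) in each root comparison and in the others (2 each), the extremes of each list, the 5 of smallest change, those at the limit of the list and those named in the study. All 22 members with a reference name and further members were added after their values were seen. Names came from the reference annotation of another assembly (ASM3414082v1) and from the supplementary tables. Promoter motifs were not analysed here, and no coordinates are given because the build of the files is not given in the sources used here.

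Alternatives were the t-test of the methods, 2-fold, each comparison fitted alone, a variance trend, a floor of 28.3, quantile normalization, median centring, a filter on dim probe sets, the replicate number as a block, leaving out each array, 1 probe set per gene, no shared probe sets, lists of 100 and 400, held-out control arrays and another enrichment rule.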

Additional observations from a re-analysis of the deposited data

Results flagged for a closer look

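The drought change of the members differed between organs and between stages by a test of the difference itself. It was lower in roots than in leaves for 115 members at tillering (59%, against 1.64% of all probe sets) and 93 at panicle elongation (47.7%, against 2.6%). It was higher in roots for 1 at panicle elongation (0.513%, against 3.35%). Between the root samples, 9 members had a higher change at panicle elongation than at tillering (4.62%, against 0.334%). All these differences use the control arrays that chose the list.

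Of the named members, Os07g0127600 (-10.90), Os03g0830500 (-7.03) and Os01g0550800 (-6.89) had the lowest root minus leaf changes at tillering, in log2. With values under 28.3 raised to it these were -4.42, -6.52 and -4.91, so the first place of Os07g0127600 depends on the floor. At panicle elongation these were Os07g0674800 (-7.43), Os03g0830500 (-7.01) and the peroxidase Os03g0368000 (-6.71), and -4.74, -6.95 and -4.78 with that floor. The change at panicle elongation exceeded that at tillering by 2.64 for Os03g0830500, 2.71 for Os03g0368000 and 2.96 for Os06g0199000. With that floor the difference for Os03g0368000 was 1.41 and no longer called. Groups of 3 arrays were not tested for outlying arrays.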

How the results depend on the processing

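No root median of the members changed direction under any alternative. The median in leaves at panicle elongation, 0.03, lay near 0 and was below 0 for the top 100 (-0.06), with the mean rule (-0.01), with control replicate 2 held out (-0.09), without PL control replicate 1 (-0.02) and without PL drought replicate 1 (-0.03). That in leaves at tillering, 0.07, was -0.11 with control replicate 3 held out, and that in leaves at booting, -0.03, was 0.06 with quantile normalization and 0.07 with median centring. With a 2-fold minimum the share of members was 0.513% higher in droughted roots at tillering, 66.7% lower and 2.05% higher at panicle elongation, 64.6% lower in both, 10.3%, 12.3% and 5.13% higher in leaves of the 3 stages in order, 7.69% higher in young panicles, and 17.4% with a higher change at panicle elongation than at tillering. The median change in roots at tillering was -2.60 with quantile normalization, -2.59 with median centring, -2.80 and -2.28 for the top 100 and 400, and -2.89, -2.47 and -2.68 with control replicate 1, 2 or 3 held out. With control replicate 2 held out, 1.54% and 2.56% were higher in roots at tillering and panicle elongation, 2.05%, 3.08% and 1.03% in leaves of the 3 stages and 1.03% in young panicles, and with control replicate 3 held out 0.515% in roots at panicle elongation. One probe set per gene gave 1.08% higher in young panicles. The top 100 had 7.29% higher at panicle elongation than at tillering, and the top 400 2.54%, with 3.3% higher in leaves at booting. With the mean of the root means minus that of the others as the rule, 2.56% were higher in leaves at booting and 3.08% in young panicles.

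Leaving out 1 array at a time gave 52.8 to 54.9% lower in roots at tillering, 39.0 to 45.6% at panicle elongation and 37.9 to 44.6% at both, and 0 to 0% and 0 to 1.03% higher. Medians were -2.74 to -2.61 and -2.11 to -1.80. Members higher were 3.08 to 4.1%, 5.13 to 6.15% and 1.54 to 1.54% in leaves and 2.05 to 2.56% in young panicles. Droughted roots exceeded leaves for 61.5 to 63.6% and 68.7 to 71.8%, and young panicles for 62.1 to 64.1% and 71.3 to 72.8%. The root minus leaf change was lower for 56.4 to 60% and 44.6 to 48.2%, and 3.08 to 5.64% were higher at panicle elongation than at tillering. Of the values of named members in roots, 1110 kept their call or its absence and 6, of 4 members, lost it, all at panicle elongation: without PR drought replicate 1, Os04g0664900 (-2.21), Os10g0464000 (-2.24), Os03g0830500 (-2.26) and Os01g0550800 (-3.27), without PR control replicate 1, Os04g0664900 (-2.29), and without PR control replicate 3, Os01g0550800 (-3.86). The methods' t-test after adjustment gave 53.3% and 31.8% lower. With the 8 probe sets left out before the top 200 were taken, a choice made after seeing the data, 54% and 42.5% were lower. The cause of these shifts was not tested.

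The replicate number as a block gave 53.8% lower at tillering, 42.1% at panicle elongation and 41.0% at both. It moved no count of drought changes, or of differences between them, past 1.5 times. Comparisons between droughted organs are left out of this, because with the block they compare levels fitted for replicate 1. Deviations of same-numbered droughted and control arrays correlated at -0.171 to 0.422 in roots, where not every array correlated best with its own number. Replicates 1 and 2 of roots at tillering did, as did every array of leaves at booting. The study randomized its pots within the blocks of a split-plot, and the labels do not tie replicate numbers to blocks. The numbers were therefore not taken to pair the arrays, though a pairing is not excluded.

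With 3 plants per group and intensities near 0 in shoots and in some droughted roots, the size of the largest falls and 3 of the 15 rises in shoots depend on the floor, as for Os07g0127600.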
